A study of Mus musculus with 12 samples.

Results

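The m6A methyltransferase complex genes were the 8 genes for subunits of the nuclear enzyme that writes N6-methyladenosine (m6A) into messenger RNA, Mettl3, Mettl14, Wtap, Virma, Rbm15, Rbm15b, Zc3h13 and Cbll1. They were chosen by name as the known core and accessory subunits, and not by their values, though earlier results of these data were known. All 8 were among the 52962 genes of the count table, and all 8 were among the 15598 genes that passed the filter on low counts, a CPM (counts per library, brought to an equal library total) over 1 in 3 or more samples. RNA was sequenced from islet cells of female mice of the NOD strain, which spontaneously becomes diabetic through autoimmunity, with no transgene, deletion or treatment in any group. Islets were cultured overnight and dispersed, leukocytes carrying CD45 were sorted out, and the remaining cells were divided by their endogenous fluorescence into a β-cell and a non-β-cell fraction. The 4 groups were 4-week β-cells of age, 8-week β-cells, 4-week non-β-cells and 8-week non-β-cells, with 3 samples in each, which the study describes as pools of mice and the sample labels do not. There was no group from a strain without autoimmunity, so that age and the course of the disease cannot be told apart in these samples.

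m6A is the most common internal mark of messenger RNA. METTL3 carries the catalytic site and binds the methyl donor S-adenosylmethionine, while METTL14, which has the same fold without catalytic activity, holds the substrate RNA and keeps METTL3 stable. WTAP brings this pair to nuclear speckles and joins it to VIRMA, the large scaffold that directs methylation towards the end of the coding sequence and the stretch behind it. RBM15 and its paralog RBM15B bind uridine-rich RNA and recruit the complex to it, ZC3H13 anchors the complex in the nucleus, and CBLL1, also called HAKAI, is a RING-type protein of the same assembly. In β-cells this machinery is known to be needed for the expression of identity genes and for insulin secretion.

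Each library held between 13755106 and 27040652 estimated counts. The β-cell marker list, with insulin and Iapp among its 7 genes, summed to between 46270 and 112400 CPM in the β-cell samples and to between 2845 and 5811 CPM in the non-β-cell samples. The non-β-cell samples were mostly α-cell in character, with a sum of 105900 to 135600 CPM for 5 α-cell genes led by glucagon, against 1517 to 9401 CPM in the β-cell samples. Ptprc, which encodes CD45, was below 1 CPM in every sample. The 4-week samples numbered 3, of both fractions, stood apart from the other 4-week samples. On the third principal component the β-cell sample numbered 3 scored 62.9, while the other 4-week β-cell samples scored 6.72 and 5.87. The non-β-cell sample numbered 3 scored 32.7, while replicates 1 and 2 scored -17.5 and -56.4. Among 4-week non-β-cells, replicate 2 also lay apart, with 78.0 on the second component beside 47.7 and 48.3. Results that rest on the 4-week samples numbered 3 are therefore given with and without them. Differences were tested with limma-voom in 1 model of the 12 samples, and each p-value is two-sided and carries a Benjamini-Hochberg adjustment across the 15598 genes, with calls made under 0.05. Nothing in the sources says that samples of equal number share a preparation, and p-values measure the spread between these samples. In bulk samples, fewer transcripts per cell and fewer cells that carry them cannot be told apart.

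The regions just before the start of transcription are shown for Zc3h13 and Cbll1, whose level was lower in the β-cell fraction, and for Mettl3, which did not pass the test in any comparison of all samples, so that the letters can be read beside the values that follow. RefSeq promoter entries matched 6 of the 8 genes. The windows of Wtap, Rbm15 and Rbm15b lie within transcripts of the annotation and are not printed. Each window holds the 250 bases before a RefSeq start, 5′ to 3′ on the strand of the gene, in build GRCm38.p6, and capitals mark matches on either strand to GGGCGG (GC box) or CCGGAAG (an ETS family motif).
Zc3h13, chr14:75284116-75284365, plus strand: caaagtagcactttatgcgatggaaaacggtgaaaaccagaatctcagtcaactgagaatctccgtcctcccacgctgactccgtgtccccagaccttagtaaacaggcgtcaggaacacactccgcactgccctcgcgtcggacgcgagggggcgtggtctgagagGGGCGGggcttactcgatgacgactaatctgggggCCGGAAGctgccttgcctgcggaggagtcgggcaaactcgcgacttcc
Cbll1, chr12:31499617-31499866, minus strand: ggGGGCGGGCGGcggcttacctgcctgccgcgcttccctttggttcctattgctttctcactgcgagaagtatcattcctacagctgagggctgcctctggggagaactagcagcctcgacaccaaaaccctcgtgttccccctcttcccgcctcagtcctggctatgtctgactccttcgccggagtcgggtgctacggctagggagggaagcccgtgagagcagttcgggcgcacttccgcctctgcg
Mettl3, chr14:52305125-52305374, minus strand: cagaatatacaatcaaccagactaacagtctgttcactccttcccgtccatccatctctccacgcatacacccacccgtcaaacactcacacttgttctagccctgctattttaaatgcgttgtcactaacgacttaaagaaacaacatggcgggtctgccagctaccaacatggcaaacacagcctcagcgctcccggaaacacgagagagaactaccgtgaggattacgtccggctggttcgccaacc
The GC content was 59.2% for Zc3h13, 62.8% for Cbll1 and 50.4% for Mettl3, beside a median of 52.4% over all 32851 promoter entries. They held 21, 18 and 13 CpG dinucleotides, against a median of 6.0. The Zc3h13 window held 1 GC box and 1 ETS motif, the Cbll1 window held 2 overlapping GC boxes, and the Mettl3 window held neither. A GC box stood in 32.7% of all promoters and the ETS motif in 6.9%. None of these 3 windows held GAAANNGAA, the core of an interferon-stimulated response element, found in 7.1% of promoters, or TTCNNNGAA, the core of a gamma-activated site, found in 7.0%. These matches describe the letters and no more.

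Levels were compared between the genes per kilobase of merged exons. Wtap was the highest in both β-cell groups, with 14.5 ± 2.42 CPM per kilobase at 4 weeks and 11.2 ± 0.656 at 8 weeks (SD, n = 3). Virma, Rbm15b and Zc3h13 came next, with means from 6.56 to 9.55 in β-cells, and their samples overlapped at 4 weeks. Mettl3 was the fifth in each of the 4 groups, with 6.51 ± 0.300 CPM per kilobase in 4-week β-cells. Cbll1 and Rbm15 followed. Mettl14 was the lowest in each group, with 1.93 ± 0.123 CPM per kilobase in 4-week β-cells and 1.11 ± 0.0564 at 8 weeks. In non-β-cells, Wtap at 11.1 ± 0.646, Zc3h13 at 11.0 ± 0.860, Rbm15b at 10.4 ± 1.24 and Virma at 10.1 ± 1.21 CPM per kilobase could not be ordered beyond their spread at 4 weeks. The place of Mettl3 depends on the length used, because its longest transcript, of 2159 bases, is much shorter than its merged exons, of 5076 bases. With the longest transcript it stood second, at 15.3 ± 0.706 CPM per kilobase in 4-week β-cells, while Mettl14 remained last in each group.

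**Figure D1:**
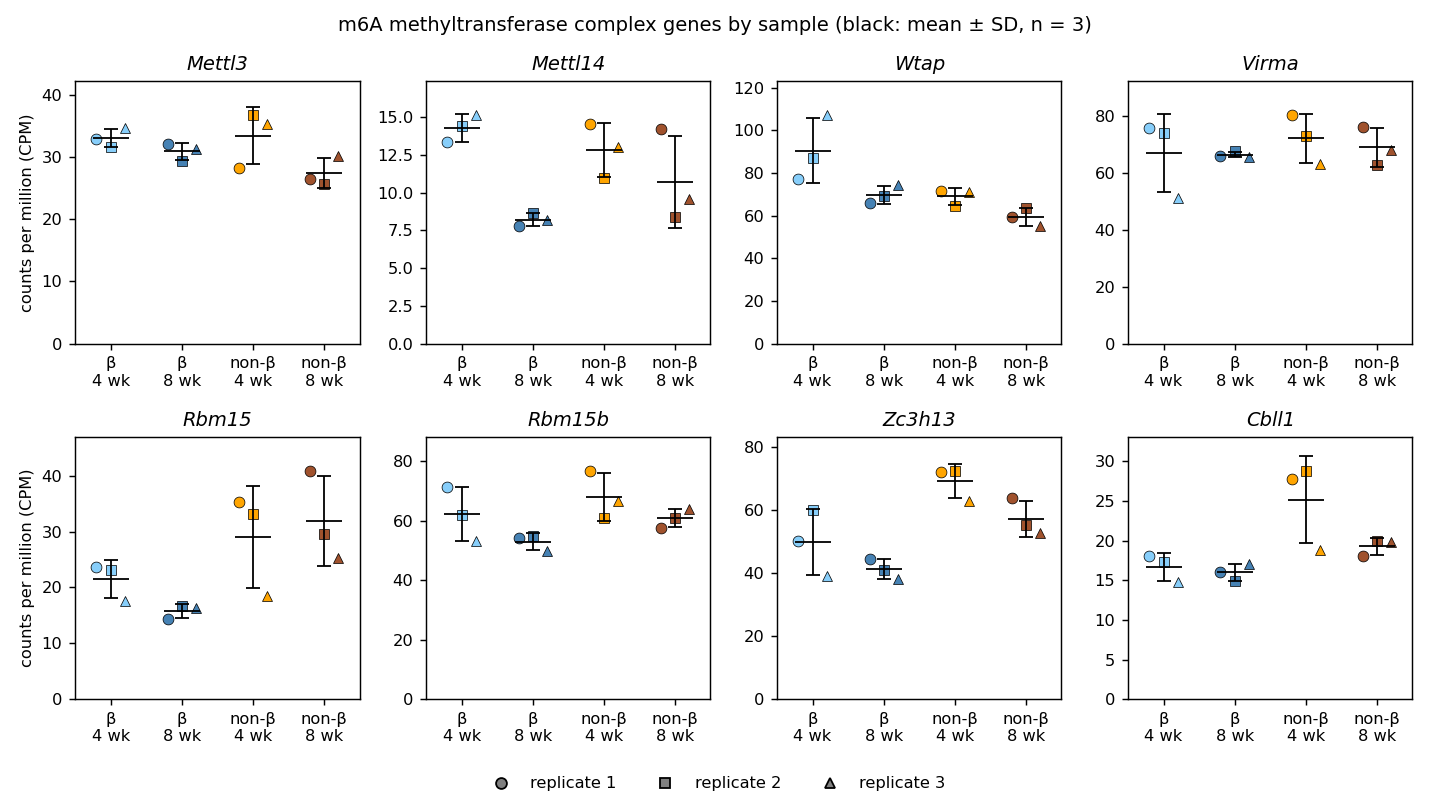
TMM-scaled CPM (vertical axes, from 0) of the 8 genes in every sample of the 4 groups; symbols give the replicate number and black bars the mean ± SD of 3 samples. Mettl14 falls from 13.3 to 15.1 CPM in 4-week β-cells to 7.80 to 8.63 CPM at 8 weeks, and the triangles of Virma, Rbm15, Zc3h13 and Cbll1 are the lowest 4-week points in both fractions.

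The first comparison asked how the writer genes changed in β-cells between 4 weeks, when islets begin to be infiltrated, and 8 weeks, when infiltration is heavy. In β-cells, Mettl14 was the only gene of the 8 to pass the test, and it fell. This is 1 of 8, beside 17.9% of all tested genes called in this comparison. Of the 8 differences 7 were below 0, as were 48.5% of those of all tested genes, and the median of the 8 was -0.24 on the log2 scale, beside 0.02 over all tested genes. Mettl3, Mettl14 and Wtap are genes that the study itself examined in these samples, so their direction here is not independent evidence.

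Mettl14 (ENSMUSG00000028114, chromosome 3, 123368297 to 123386108, minus strand, GRCm38) encodes the RNA-holding partner of METTL3. In β-cells it stood at 13.3, 14.4 and 15.1 CPM at 4 weeks and at 7.80, 8.63 and 8.19 CPM at 8 weeks. Every 8-week sample was thus below every 4-week sample. The log2 change was -0.80 (SE 0.19, 95% interval -1.20 to -0.39, limma adjusted p = 0.0115), which is 0.575 times the 4-week level. Without the 4-week samples numbered 3 it was -0.76 (SE 0.21, adjusted p = 0.0197). The call also held under each of the 23 alternative analyses, with adjusted p between 0.000791 and 0.0432. The gene is the least abundant of the set, with 112 to 380 estimated counts per library.

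Mettl3 (ENSMUSG00000022160, chromosome 14, 52294841 to 52305128, minus strand) encodes the catalytic subunit. Its β-cell values were 32.8, 31.6 and 34.6 CPM at 4 weeks and 32.0, 29.4 and 31.3 CPM at 8 weeks. The ranges overlapped, and the log2 change was -0.10 (SE 0.12, 95% interval -0.36 to 0.17, adjusted p = 0.626). Exons of Mettl3 share 933 bases with Tox4 on the opposite strand, so that counting that ignored the strand could mix their reads. Tox4 lay between 92.2 and 113 CPM in the group means and was higher at 8 weeks over both fractions, by 0.25 on the log2 scale (adjusted p = 0.0173), opposite in sign to Mettl3.

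The relation between the catalytic pair can be read without any scaling between libraries, as the ratio of Mettl14 to Mettl3 counts within a sample. In β-cells the ratio was 0.406, 0.457 and 0.437 at 4 weeks and 0.243, 0.294 and 0.262 at 8 weeks, so the age groups did not overlap. In non-β-cells it was 0.516, 0.299 and 0.368 at 4 weeks and 0.538, 0.326 and 0.318 at 8 weeks. The non-β-cell groups overlapped, and the sample numbered 1 was the highest at each age. The ratio was not tested, since it restates the values of the 2 genes.

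**Figure D2:**
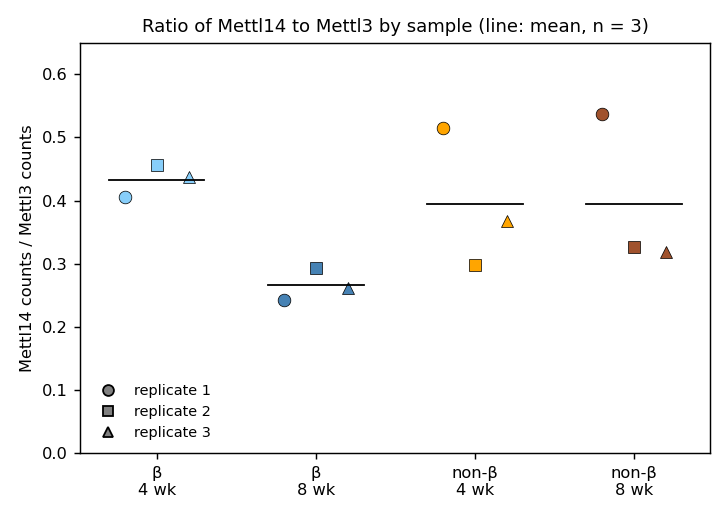
Ratio of Mettl14 to Mettl3 estimated counts (vertical axis, from 0) in each sample; symbols give the replicate number and lines the mean of 3 samples. The β-cell ratios lie between 0.406 and 0.457 at 4 weeks and between 0.243 and 0.294 at 8 weeks, while the non-β-cell ratios of the 2 ages overlap.

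Wtap (ENSMUSG00000060475, chromosome 17, 12966796 to 12994169, minus strand), the adaptor between the catalytic pair and the rest of the complex, lay close to the threshold. It stood at 77.4, 87.2 and 107 CPM in 4-week β-cells and at 66.0, 69.2 and 74.2 CPM at 8 weeks, without overlap. The log2 change was -0.36 (SE 0.12, 95% interval -0.62 to -0.11, adjusted p = 0.0513). The highest value came from the 4-week sample numbered 3, and without the pair of samples of that number the change was -0.24 (adjusted p = 0.0841). Of the 23 alternative analyses, 12 placed Wtap past the threshold, with adjusted p from 0.0204 to 0.152 over all of them, so the call depended on the analysis chosen.

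Among the accessory subunits, the scaffold gene Virma (ENSMUSG00000040720, chromosome 4, 11485958 to 11550684, plus strand) had the estimate nearest to 0. Its β-cell values were 75.6, 73.9 and 51.3 CPM at 4 weeks and 66.0, 67.5 and 65.7 CPM at 8 weeks, and the log2 change was 0.01 (SE 0.15, adjusted p = 0.971). The RNA-binding recruiter Rbm15 (ENSMUSG00000048109, chromosome 3, 107325421 to 107333673, minus strand) stood at 23.7, 23.2 and 17.6 CPM at 4 weeks and at 14.3, 16.7 and 16.2 CPM at 8 weeks, which did not overlap but gave a log2 change of -0.43 with a wide interval, -0.99 to 0.13 (adjusted p = 0.28). For its paralog Rbm15b (ENSMUSG00000074102, chromosome 9, 106880918 to 106887428, minus strand) the values were 71.3, 62.0 and 53.2 CPM, then 54.1, 54.9 and 49.7 CPM, with a log2 change of -0.22 (adjusted p = 0.246). In all 3 genes the 4-week sample numbered 3 was the lowest of its group, and Rbm15b of that sample fell within the 8-week range. The nuclear anchor Zc3h13 (ENSMUSG00000022000, chromosome 14, 75284373 to 75344426, plus strand) showed the same spread, with 50.0, 60.0 and 39.1 CPM at 4 weeks and 44.4, 41.0 and 38.2 CPM at 8 weeks, and a log2 change of -0.26 (adjusted p = 0.264). Cbll1 (ENSMUSG00000020659, chromosome 12, 31484829 to 31499616, minus strand) lay between 14.7 and 18.1 CPM at 4 weeks and between 14.9 and 17.0 CPM at 8 weeks (log2 change -0.06, adjusted p = 0.842). Its exons share 704 bases with the antisense gene Gm29542, whose group means did not exceed 0.0570 CPM, and those of Rbm15b share 75 bases with Dcaf1 on the opposite strand and 14 with Manf on the same strand.

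Leaving out the 4-week samples numbered 3 changed which subunits passed. In β-cells 3 of 8 were then called lower at 8 weeks, where 22.7% of all tested genes were called. These were Mettl14, Rbm15 at -0.57 (SE 0.19, adjusted p = 0.0469) and Zc3h13 with -0.43 (SE 0.11, adjusted p = 0.018). Rbm15b stood just outside, at -0.33 (adjusted p = 0.0519), and all 8 differences were below 0. The 4-week groups then hold 2 samples each, and the samples were set aside because of their overall profile, so these values show how far the accessory subunits depend on them and do not replace the values from all samples.

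**Figure D3:**
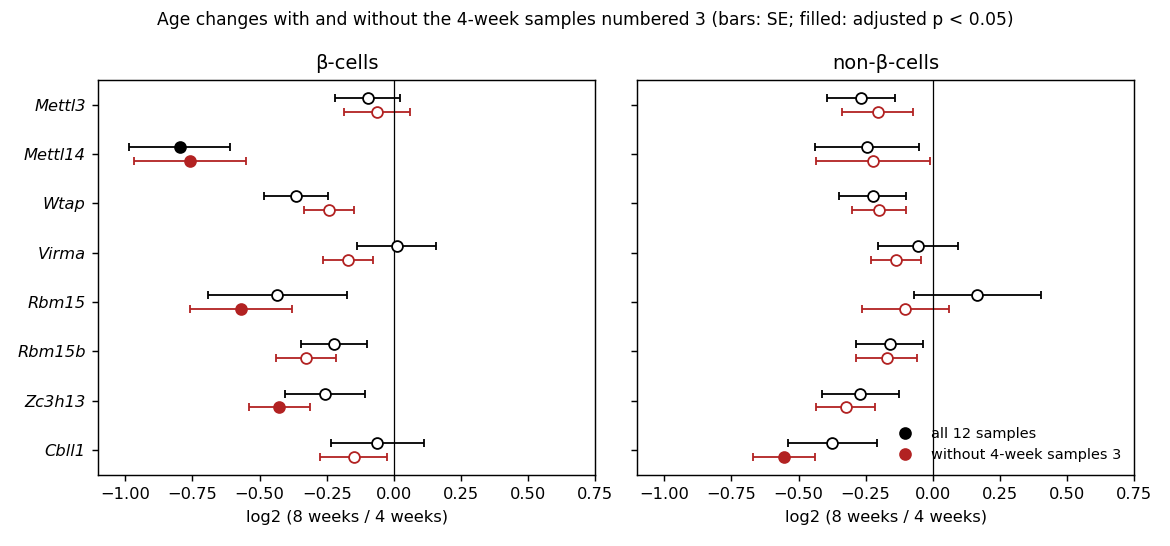
Log2 change from 4 to 8 weeks (horizontal axes) of the 8 genes in each fraction, fitted to all 12 samples (black) and without the 4-week samples numbered 3 (red); bars are the SE and filled points have an adjusted p under 0.05. Mettl14 stays near -0.80 in β-cells in both fits, while Rbm15 moves from -0.43 to -0.57 and Zc3h13 from -0.26 to -0.43.

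In non-β-cells the same comparison called 0 of the 8 genes with limma, beside 16.4% of all tested genes, and 1 of the 8 had an unadjusted p under 0.05. The edgeR and DESeq2 tests also called 0. The gene with the small unadjusted p was Cbll1, at 27.8, 28.8 and 18.9 CPM at 4 weeks and 18.0, 19.9 and 19.9 CPM at 8 weeks, with a log2 change of -0.37 (SE 0.17, adjusted p = 0.156). The low 4-week value was that of the sample numbered 3, and without the samples of that number Cbll1 passed, at -0.55 (SE 0.12, adjusted p = 0.00407), as the only gene of the 8, where 22.3% of all tested genes were called. Mettl14 stood at 14.6, 11.0 and 13.0 CPM at 4 weeks and at 14.2, 8.37 and 9.61 CPM at 8 weeks. These ranges overlapped because the 8-week sample numbered 1 kept the 4-week level, and the log2 change was -0.24 (95% interval -0.66 to 0.17, adjusted p = 0.46). Without that library, non-β-cell 8-week replicate 1, the change was -0.52 (SE 0.20, adjusted p = 0.123). With sample quality weights in the limma fit of all samples, Mettl14 passed in non-β-cells, at -0.51 (SE 0.17, adjusted p = 0.0456).

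Wtap in non-β-cells was at 71.8, 64.4 and 71.0 CPM at 4 weeks and at 59.4, 63.4 and 55.3 CPM at 8 weeks. The groups did not overlap, yet the log2 change of -0.22 (95% interval -0.49 to 0.05) had an adjusted p of 0.272. Mettl3 was at 28.2, 36.7 and 35.4 CPM, then at 26.4, 25.7 and 30.2 CPM, with a log2 change of -0.27 (95% interval -0.54 to 0.01, adjusted p = 0.19). The low 4-week value was that of replicate 1, and without this library Mettl3 passed, at -0.42 (SE 0.12, adjusted p = 0.045). This estimate lay further from 0 than the one for β-cells, with overlapping intervals. Rbm15 was the only gene with a difference above 0, at 0.17 (adjusted p = 0.707), and its sign turned to -0.10 without the 4-week samples numbered 3. Of the 8 differences 7 were below 0, with a median of -0.23, where the median over all tested genes was 0.01.

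The marker sums of the fractions shifted with age as well, and these sums do not tell cell numbers from transcripts per cell. In non-β-cells the sum of 5 endothelial markers was 37.0 to 73.3 CPM at 4 weeks and 318 to 905 CPM at 8 weeks, and that of 5 mesenchymal markers 102 to 286 CPM and 633 to 978 CPM. In β-cells the α-cell list summed to 5619 to 9401 CPM at 4 weeks and 1517 to 2570 CPM at 8 weeks, and the β-cell list was 46270 to 81250 CPM at 4 weeks and 106900 to 112400 CPM at 8 weeks. The sum of the mesenchymal list in β-cells was 3.65 to 13.6 CPM at 4 weeks and 23.6 to 48.7 CPM at 8 weeks. The acinar list of 5 genes, of which Prss1 was at 0 throughout, summed to 42.2 to 84.1 CPM in 4-week and 180 to 364 CPM in 8-week β-cells, and to 30.7 to 60.1 CPM and 105 to 351 CPM in non-β-cells. The 4 duct markers summed to 830 to 1161 CPM and 1648 to 1769 CPM in β-cells, and to 564 to 756 CPM and 1864 to 2096 CPM in non-β-cells. Both lists were thus higher at 8 weeks without overlap in each fraction. The 10 leukocyte markers summed to 51.7 to 53.6 CPM in 4-week β-cells and to 70.0 to 77.5 CPM at 8 weeks, of which Cd68, a lysosomal protein gene, made up 47.5 to 50.1 CPM and 64.0 to 74.1 CPM, while Ptprc was at 0 in all 3 β-cell samples of 8 weeks. The part of these shifts in the age changes of the writer genes was not tested.

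Taking the mean of the age changes over both fractions, all 8 differences were below 0, beside 48.2% of those of all tested genes. Of the 8 genes 2 passed, where 24.8% of all tested genes were called. Mettl14 was lower, at -0.52 (SE 0.13, adjusted p = 0.0135), as was Wtap, at -0.29 (SE 0.086, adjusted p = 0.0252). Zc3h13 followed with -0.26 (adjusted p = 0.0823), while Mettl3 had -0.18 (adjusted p = 0.151; -0.27 and adjusted p = 0.0338 without non-β-cell 4-week replicate 1) and Virma -0.02 (adjusted p = 0.893). The median of the 8 was -0.20, beside 0.02 over all tested genes. The summed level of the 8 genes was 362, 370 and 333 CPM in 4-week β-cells and 301, 302 and 300.4 CPM at 8 weeks, and 407, 380 and 349 CPM in 4-week non-β-cells and 357, 326 and 325 CPM at 8 weeks. The β-cell sums did not overlap between ages, and those of non-β-cells did. Mettl14 passed in each of the 22 alternative analyses of this mean. Wtap passed in 19 and lost the call when β-cell 8-week replicate 1, β-cell 8-week replicate 2 or non-β-cell 8-week replicate 3 was left out, with a highest adjusted p of 0.0653. Without the 4-week samples numbered 3, 5 of the 8 passed, beside 30% of all tested genes, with Zc3h13 at -0.37 (adjusted p = 0.00364), Cbll1 at -0.35 (adjusted p = 0.0079) and Rbm15b at -0.25 (adjusted p = 0.031) joining Mettl14 and Wtap.

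Whether the age change differed between the fractions was tested directly, as the β-cell change minus the non-β-cell change. With limma 0 of the 8 genes passed, beside 5.13% of all tested genes, and 0 had an unadjusted p under 0.05. The edgeR and DESeq2 tests also called 0. For Mettl14 the difference was -0.55 on the log2 scale (SE 0.27, 95% interval -1.14 to 0.03, adjusted p = 0.29), which runs from close to 0 to a much deeper fall in β-cells. Without non-β-cell 8-week replicate 1 it was -0.30 (SE 0.25, adjusted p = 0.568). Rbm15 had -0.60 (95% interval -1.36 to 0.16, adjusted p = 0.389) and Wtap -0.14 (95% interval -0.51 to 0.23, adjusted p = 0.726). For Mettl3 the difference was 0.17 (95% interval -0.21 to 0.55, adjusted p = 0.668). A change of these genes particular to β-cells was therefore not shown by this test. Mettl14 passed in β-cells alone in the fit of all samples without weights, and in both fractions with sample quality weights.

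**Figure D4:**
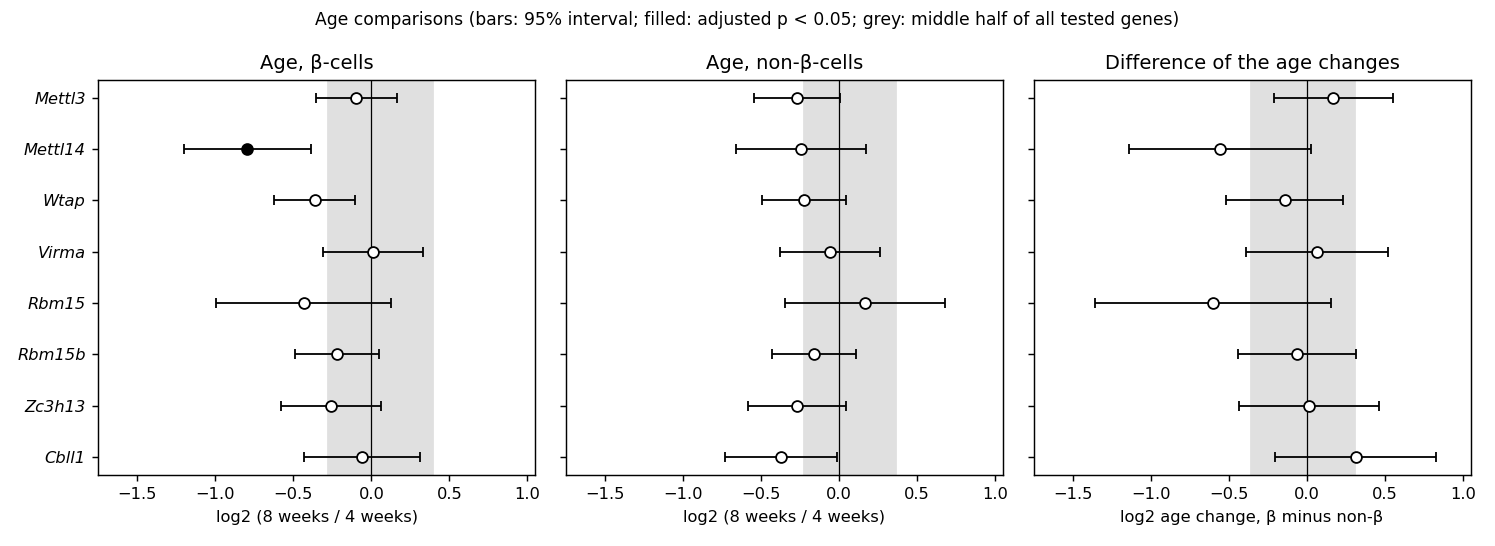
Log2 change from 4 to 8 weeks in each fraction (β, then non-β), and the difference between these changes (horizontal axes), for the 8 genes; bars are 95% intervals, filled points have an adjusted p under 0.05 and the grey band holds the middle 50% of all tested genes. Only Mettl14 in β-cells, at -0.80, is filled, and the interval of its difference between fractions, -1.14 to 0.03, reaches past 0.

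Between the fractions, at 4 weeks 3 of the 8 genes passed, beside 48.5% of all tested genes, with Wtap higher and Zc3h13 and Cbll1 lower in β-cells. At 8 weeks 2 of the 8 passed, beside 49.2%, with Rbm15 and Zc3h13 lower in β-cells. Over the mean of both ages 4 of the 8 passed, beside 62.5%. In each case the share of called subunits did not exceed that of all genes.

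Zc3h13 was lower in β-cells at both ages. It stood at 71.9, 72.3 and 62.8 CPM in 4-week non-β-cells, above each β-cell sample of that age, and at 63.7, 55.1 and 52.8 CPM at 8 weeks, again without overlap. The log2 difference, β minus non-β, was -0.49 (SE 0.14, adjusted p = 0.0136) at 4 weeks and -0.48 (SE 0.15, adjusted p = 0.0176) at 8 weeks. The 4-week call was lost without non-β-cell 4-week replicate 1 (adjusted p = 0.0538) and when only the groups compared were fitted (adjusted p = 0.0514), and the 8-week call was lost without β-cell 8-week replicate 3 (adjusted p = 0.0838) or non-β-cell 8-week replicate 1 (adjusted p = 0.0935). Averaged over ages it was -0.48 (SE 0.10, adjusted p = 0.00128).

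Rbm15 showed the widest gap. Non-β-cells had 35.3, 33.1 and 18.5 CPM at 4 weeks and 40.9, 29.6 and 25.2 CPM at 8 weeks. At 8 weeks each of these samples exceeded each β-cell sample, with a log2 difference of -1.0 (SE 0.25, 95% interval -1.55 to -0.45, adjusted p = 0.00533), and this call held in each of the 23 alternatives. At 4 weeks the sample numbered 3 overlapped the β-cells and the difference was -0.40 (adjusted p = 0.187). Without the 4-week samples of that number it was -0.54 (adjusted p = 0.0262). Its paralog Rbm15b, by contrast, had 76.7, 60.8 and 66.5 CPM in 4-week non-β-cells and 57.7, 60.9 and 63.9 CPM at 8 weeks, with log2 differences of -0.14 (adjusted p = 0.375) and -0.20 (adjusted p = 0.206). Per kilobase of exons, Rbm15b was at 9.55 and Rbm15 at 2.90 CPM in 4-week β-cells.

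Cbll1 was lower in 4-week β-cells, by a log2 difference of -0.58 (SE 0.16, adjusted p = 0.0112), with all β-cell samples at or under 18.1 CPM and all non-β-cell samples at or above 18.9 CPM. It lost the call, with an adjusted p of 0.0502, without non-β-cell 4-week replicate 1. At 8 weeks the samples did not overlap either, but the difference of -0.26 had an adjusted p of 0.226. Wtap ran the other way. At 4 weeks it was higher in β-cells by 0.38 (SE 0.12, adjusted p = 0.0196), and at 8 weeks by 0.24 without passing (adjusted p = 0.129; 0.0473 without β-cell 4-week replicate 3). The 4-week call of Wtap rested in part on the high β-cell sample numbered 3 and was lost without it (adjusted p = 0.0586) or without non-β-cell 4-week replicate 2 (adjusted p = 0.0581), with sample quality weights (adjusted p = 0.0534) and when only the groups compared were fitted (adjusted p = 0.0781), while the average over ages, 0.31 (SE 0.086, adjusted p = 0.00724), passed in each of the 22 alternatives. For Mettl3 the differences were 0.00 (95% interval -0.26 to 0.26) at 4 weeks and 0.17 (95% interval -0.11 to 0.44) at 8 weeks, and for Mettl14 0.15 (adjusted p = 0.485) and -0.40 (adjusted p = 0.125). The 8-week difference of Mettl14 was -0.14 (adjusted p = 0.629) without non-β-cell 8-week replicate 1. Virma differed by -0.12 (adjusted p = 0.508) and -0.06 (adjusted p = 0.771). After removing hormone and mitochondrial genes, 3 of the 8 subunits were called at 4 weeks, beside 47.7% of all tested genes, and 2 at 8 weeks, beside 48.5%. The counts were the same as before, and neither share of subunits exceeded that of all tested genes. The non-β-cell fraction mixes several cell types, so its values are means over them.

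**Figure D5:**
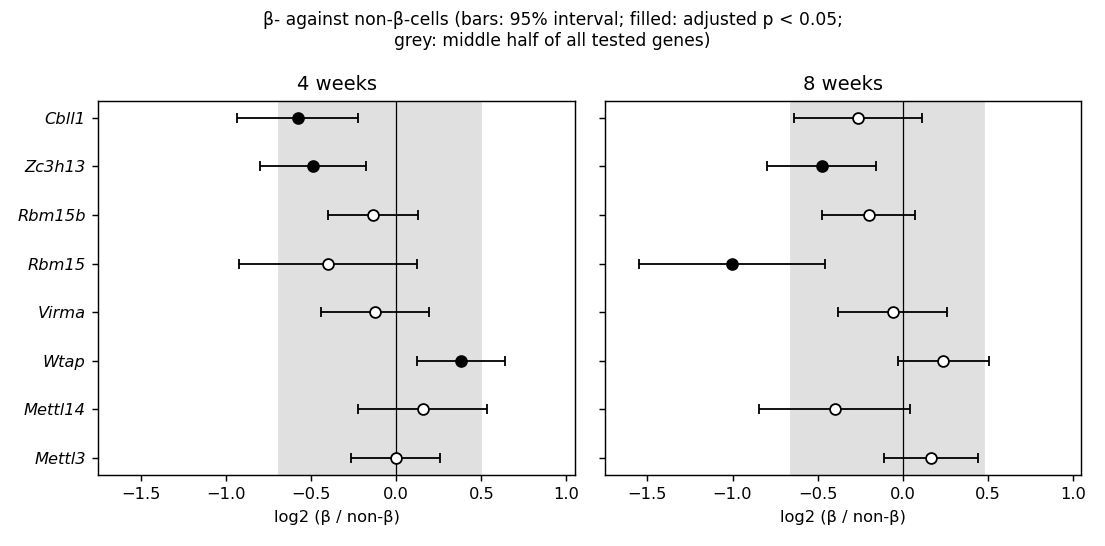
Log2 difference between β-cells and non-β-cells (horizontal axes, positive where β-cells are higher) of the 8 genes at 4 and at 8 weeks; bars are 95% intervals, filled points have an adjusted p under 0.05 and the grey band holds the middle 50% of all tested genes. Zc3h13 is filled at both ages near -0.48, Wtap and Cbll1 at 4 weeks and Rbm15 at 8 weeks at -1.0.

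The likeness of 2 profiles was measured as the root mean square difference in log2 CPM over the 12 samples, after centring each gene. Among the 28 pairs of subunits it ran from 0.16 for Virma and Rbm15b to 0.609 for Wtap and Rbm15. Zc3h13 and Cbll1 were the second nearest pair, at 0.186, and Mettl3 and Wtap the third, at 0.226. For Mettl3, Mettl14 and Wtap the profile was also compared with the 10163 genes outside the set that had a matched symbol and a mean log2 CPM of 3 or more. Wtap, the subunit nearest to Mettl3, ranked 1537 by closeness beside those genes. The genes nearest to Mettl3 were Cebpz at 0.0714, Gmps at 0.0882 and Cnot9 at 0.097. For Mettl14 they were Tmem41b at 0.157, Smc3 at 0.167 and Zranb1 at 0.175, and its nearest subunit was Rbm15b at 0.308. Sart1, Mterf4 and Cdk7 came nearest to Wtap, at 0.0836, 0.0879 and 0.0892. The spread between replicates was small for Mettl3, with a residual SD of 0.129 on the log2 scale, below most genes, whose median was 0.254. It was largest for Rbm15, at 0.337.

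The other genes of the m6A pathway were counted by role. Of 6 other adenosine methyltransferases and their partners, 1 passed in β-cells with age, beside 17.9% of all tested genes, Pcif1, which methylates the cap-adjacent adenosine. It fell from a mean of 96.3 to 72.5 CPM (log2 change -0.41, adjusted p = 0.0163). In non-β-cells 1 of the 6 passed, beside 16.4% of all tested genes, Trmt112, the activating partner of METTL5, with a log2 change of -0.58 (adjusted p = 0.0326). Pcif1 had -0.11 in non-β-cells (adjusted p = 0.561) and Trmt112 had -0.36 in β-cells (adjusted p = 0.142). Of 6 genes for the supply of S-adenosylmethionine and the removal of its product, 3 passed in β-cells, beside 17.9% of all tested genes. In non-β-cells 0 passed by limma, beside 16.4%, and 4 of the 6 had an unadjusted p under 0.05. Mat2a, the catalytic subunit of the enzyme that makes the methyl donor, rose in β-cells from 20.9 to 38.6 CPM (log2 change 0.88, SE 0.19, adjusted p = 0.00577), whereas Mat2b, its regulatory subunit, fell from 69.8 to 47.8 CPM (log2 change -0.54, SE 0.097, adjusted p = 0.00215). The p-value of Mat2a was tied with that of another gene entry in each comparison. Whether its reads were divided between entries was not tested. Ahcyl1, a relative of the enzyme that hydrolyses S-adenosylhomocysteine, rose by 0.28 (adjusted p = 0.0496). In non-β-cells these 3 genes moved the same way without passing. The log2 changes there were 0.51 for Mat2a (adjusted p = 0.0629), -0.27 for Mat2b (adjusted p = 0.113) and 0.25 for Ahcyl1 (adjusted p = 0.0805).

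Of the 2 demethylase genes, Fto and Alkbh5, 0 passed with age in either fraction by limma, and 0 had an unadjusted p under 0.05. Of 12 reader genes 10 were tested, and 2 passed in β-cells, beside the same 17.9% of all tested genes. Hnrnpa2b1, a nuclear RNA-binding protein, rose from 131 to 218 CPM (log2 change 0.74, SE 0.11, adjusted p = 0.000594), and Igf2bp2, which stabilises bound messages, fell from 40.6 to 29.9 CPM (log2 change -0.45, adjusted p = 0.0157). In non-β-cells 1 of the 10 passed, beside 16.4% of all tested genes, and 3 had an unadjusted p under 0.05. It was Ythdf2, which directs marked messages to decay, and it fell from 38.3 to 29.4 CPM (log2 change -0.39, adjusted p = 0.0404). The 2 readers called in β-cells moved the same way in non-β-cells without passing. Hnrnpa2b1 had a log2 change of 0.33 there (adjusted p = 0.0571) and Igf2bp2 one of -0.37 (adjusted p = 0.0605). No gene of these 4 lists passed the test of the difference between fractions in their age changes by limma, and 2 of the readers had an unadjusted p under 0.05. Without the 4-week samples numbered 3, Hnrnpa2b1 passed it, with a difference of 0.52 on the log2 scale (SE 0.14, adjusted p = 0.0326). Without the same 4-week samples numbered 3, the genes of these lists called with age kept direction and call in that fraction, other than Ahcyl1.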

How the data were processed

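The members of the complex and the other gene lists were chosen with earlier results of these data known. Total RNA was made into strand-specific libraries with a low-input kit. The study's methods name fastp for trimming, kallisto for assignment to transcripts and tximport for gene totals. The values deposited are estimated counts for each gene, without scaling or filter. Software versions are not given in the sources used here, nor is whether kallisto used the strand, so overlapping antisense genes may share reads. Estimated counts were rounded to whole numbers. The genome build is GRCm38, and gene coordinates come from GENCODE M21 on that build, counted from 1.

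The filter required a CPM above 1 in 3 or more libraries. TMM scaling used edgeR 4.0.16, and the limma-voom test ran under R 4.3.3 with limma version 3.58.1, in 1 model of 4 group means without covariates, which follows the study. The steps were tested on simulated data. The 7 comparisons were the age change in each fraction and their mean, the β minus non-β difference at each age and their mean, and the difference between the age changes. All CPM are on the TMM scale, with 2 prior counts where logged. The text names the 8 members, other pathway genes with an adjusted p under 0.05 in an age comparison, and the 3 nearest genes to each of Mettl3, Mettl14 and Wtap. Alternatives were edgeR and DESeq2 1.42.0 tests, other scalings, filters and weights, a replicate block, fewer groups, removal of hormone and mitochondrial genes, and leaving out samples.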

Additional observations from a re-analysis of the deposited data

How the results depend on the processing

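The number of the 8 genes called with age in β-cells, 1 with all samples, was 2 with edgeR, DESeq2, DESeq2 size factors, total counts as scaling, at least 10 counts in 6 samples, removal of hormone and mitochondrial genes or the replicate block, 3 without both 4-week samples numbered 3 and 5 with sample quality weights. With 1 sample left out the number ran from 1 to 2, beside 10.9% to 20.2% of all tested genes. It was 2 without 4-week replicate 1 or 3 of β-cells, 4-week replicate 1 or 2 of non-β-cells or 8-week replicate 1 of non-β-cells. The share of all tested genes called in β-cells was 17.5% after removal of hormone and mitochondrial genes and 21.1% with the replicate block. It was 22.7% without the 4-week samples numbered 3 and 34.5% with quality weights. The weights thus raised calls over all tested genes in β-cells, and counts under them are not particular to the 8 genes. A count that stands here without a share of all tested genes is not read as a result about the 8 genes. In non-β-cells the number, 0 with all samples, was 3 with quality weights, namely Mettl14, Zc3h13 and Cbll1. It was 1 without the 4-week samples numbered 3, beside 22.3% of all tested genes. With 1 sample left out it ran from 0 to 1, beside 11.8% to 20.6%, with 1 called without 4-week replicate 1 or 3. For the mean of both fractions the number, 2 with all samples, was 7 with quality weights. It was 5 without the 4-week samples numbered 3, beside 30% of all tested genes, and from 1 to 4 with 1 sample left out, beside 20.1% to 25.2%. Between fractions the number was 1 at 4 weeks with only the groups compared. With 1 sample left out it ran from 1 to 4 at 4 weeks, beside 41.9% to 50.4% of all tested genes, and from 1 to 3 at 8 weeks, beside 40.7% to 54.6%. The means over fractions or ages and the difference between age changes need every group, so they have no such restricted fit.

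Without a filter the share of all tested genes called was 8.55%, 9.55%, 13.7%, 26.3%, 28.3%, 36.7% and 2.95% for the 7 comparisons, in the order of the methods, over a larger set. For age in β-cells it was 34.5% with quality weights and 10.9% to 11.2% without 1 of the 8-week β-cell samples. For the difference between age changes it was 10% with DESeq2, 15.3% with quality weights, 9.51% without the 4-week samples numbered 3 and 13.3% with the block.

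No called value changed sign, but log2 values near 0 did. Virma with age in β-cells was -0.012 with edgeR, -0.017 with DESeq2, -0.024 with total counts, -0.0064 without a filter, -0.15 with quality weights, -0.17 without the 4-week samples numbered 3 and from -0.17 to 0.085 with 1 sample left out. Mettl3 between fractions at 4 weeks was 0.0015 with total counts, 0.024 without a filter, 0.0062 with the stricter filter, 0.086 with quality weights, 0.0020 without hormone and mitochondrial genes, 0.019 without the samples numbered 3 and from -0.12 to 0.075 with 1 left out. The Zc3h13 difference between age changes was -0.00022 with edgeR, -0.022 with DESeq2, -0.0096 with its size factors, -0.0087 without a filter, -0.10 without the samples numbered 3 and from -0.15 to 0.15 with 1 left out. That of Virma was -0.034 without the samples numbered 3 and from -0.12 to 0.15 with 1 left out, and that of Rbm15b from -0.17 to 0.030. Rbm15 with age in non-β-cells was -0.16 with quality weights, -0.10 without the samples numbered 3 and from -0.11 to 0.35 with 1 left out. With 1 left out, Virma ran from -0.15 to 0.018 with age in non-β-cells, from -0.11 to 0.014 in the mean of both fractions, from -0.22 to 0.057 between fractions at 4 weeks and from -0.13 to 0.025 at 8 weeks, where it was 0.010 with quality weights. Mettl14 between fractions over both ages ran from -0.19 to 0.014.

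The replicate numbers were not taken to pair the samples, since no source says that equal numbers share a preparation. The correlation of the deviations of same-numbered β- and non-β-cell samples was 0.0797, 0.133 and 0.306 at 4 weeks and 0.0177, 0.0487 and 0.00797 at 8 weeks. Its mean was 0.173 at 4 weeks, beside -0.0854 for unequal numbers, and 0.0248 beside -0.0124 at 8 weeks. In each pairing 2 of 3 samples correlated best with their own number, and so they did between the ages of each fraction. Whether equal numbers share a preparation was not tested. With the block, 58.7% of all tested genes were called between fractions at 4 weeks, beside 48.5% without it. With the replicate block Wtap passed with age in β-cells (-0.37, limma adjusted p = 0.042), Zc3h13 in the mean of both fractions (-0.26, adjusted p = 0.0295), Rbm15 between fractions at 4 weeks (-0.43, adjusted p = 0.0236) and Rbm15b between fractions over both ages (-0.17, adjusted p = 0.0412). The block changed no other call of the 8 genes. The cause of these moves was not tested. With 3 samples a group, the intervals of the age changes within a fraction were widest for Mettl14, the gene with the fewest counts, and for Rbm15, the gene with the largest spread between replicates.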
